A study of Mus musculus with 24 samples.

Results

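The genes described here are 10 transcription factors of the early neural lineage, Sox1, Sox3, Pax6, Pax3, Hes3, Hes5, Irx3, Six3, Hesx1 and Neurog2. They were chosen by name from the 35591 rows of a table of raw read counts, and all 10 were found there. Their levels were read in 24 poly(A) RNA-seq libraries made while male mouse embryonic stem cells (mESCs) were turned into neuromesodermal progenitors (NMPs), the cells that supply both spinal cord and trunk mesoderm. All lines came from blastocysts of a Cast Smchd1 +/+ mother and a C57BL/6 father carrying Smchd1 del/fl and MMTV-Cre T/+. The 3 wild-type lines (Smchd1 wt) were Smchd1 fl/+ and the 3 heterozygous lines (Smchd1 het) were Smchd1 del/+, so that het lines had no working paternal copy of this gene for a chromatin protein involved in silencing, and both kinds of line grew from oocytes with an intact Smchd1. Each line was derived from a separate blastocyst and was sampled on day 0 (medium with LIF), day 2 (after bFGF), day 2.5 and day 3 (after CHIR99021, which activates Wnt signalling, was added with bFGF at day 2), which gave 8 groups of 3 lines.

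SOX proteins of the B1 group, such as Sox1 and Sox3, bind DNA through an HMG box and keep neural progenitors in an undifferentiated, dividing state, and Sox1 is among the earliest genes turned on when ectoderm becomes neural. Paired-box and homeobox factors then give the neural tube its regions: Six3 and Hesx1 mark the anterior forebrain, Pax6 the forebrain, eye and ventral spinal cord, Irx3 the more posterior tube, and Pax3 its dorsal side. The Hes genes encode repressors that hold progenitors back from becoming neurons, Hes5 being a direct target of Notch signalling through the DNA-binding protein RBPJ, while Neurog2 drives neuronal differentiation. Sox3 and Hesx1 are also known from pluripotent cells and the early epiblast, before any neural tissue exists.

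In the GRCm38.p6 coordinates of the count table, the genes of the neural progenitor group are Sox1 at chr8:12395295-12400126, Sox3 at chrX:60891366-60893430 and Pax6 at chr2:105668900-105697364. Pax3 lies at chr1:78101267-78197134, Irx3 at chr8:91798525-91802067, Six3 at chr17:85613608-85629302 and Hesx1 at chr14:26994416-27002329. Hes3 lies at chr4:152285972-152291662, Hes5 at chr4:154960923-154962371 and Neurog2 at chr3:127633135-127635631. Sox1 and Sox3 each have 1 exon, Pax6 has 16 and Pax3 has 9 in the GENCODE annotation. Exons of 3 of the genes are overlapped on the opposite strand by an annotated transcript that has counts in the table: Gm20421 covers 31.8% of the exon length of Hes5, Irx3os 4.49% of that of Irx3 and Six3os1 1.95% of that of Six3. Over all libraries Gm20421 had 46 counts against 183 for Hes5, Irx3os 264 against 1004 for Irx3, and Six3os1 67 against 12 for Six3, and since the kit used for each library was either stranded or not, reads over these overlaps cannot be told apart.

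Promoter windows from RefSeq (GRCm38.p6, from 250 bases before to 50 after the start) were at hand for 7 of the 10 genes, with a pair of starts for Pax6. They were searched on both strands for GTGGGAA, the core to which RBPJ binds, and for CTTTGA, the core of TCF/LEF sites, the factors through which Wnt signalling acts. GTGGGAA was found in the window of Hes5 alone among the 7, with 2 matches that began 226 and 83 bases before the start, and it occurs in 6.38% of the 32851 windows of all promoters. CTTTGA was found in none of the windows of the 7 genes and in 16.0% of all promoters. The window of Hes5 is printed because this is the only one of the genes whose change after day 2.5 passed the test in the wt lines. It is chr4:154960673-154960972 on the plus strand, with the RBPJ letters of either strand in capitals.
Hes5: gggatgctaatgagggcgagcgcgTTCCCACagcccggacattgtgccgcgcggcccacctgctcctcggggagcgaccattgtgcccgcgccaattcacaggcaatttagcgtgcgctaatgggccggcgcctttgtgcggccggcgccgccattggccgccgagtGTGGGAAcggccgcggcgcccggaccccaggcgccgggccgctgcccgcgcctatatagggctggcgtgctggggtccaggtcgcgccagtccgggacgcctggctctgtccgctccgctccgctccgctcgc

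The windows of Sox1 and Hesx1 are printed because these genes moved in opposite directions between day 0 and day 2, and because their base composition lies at the ends of the range among the genes that rose or fell at that step and had a window. Both lie on the plus strand, at chr8:12395269-12395568 for Sox1 and chr14:27000112-27000411 for Hesx1, and CG dinucleotides are in capitals. The window of Sox1 has 37 CG dinucleotides and 70.7% G or C, and that of Hesx1 has 4 and 33.7%, beside medians of 7 and 52.7% over all promoters.
Sox1: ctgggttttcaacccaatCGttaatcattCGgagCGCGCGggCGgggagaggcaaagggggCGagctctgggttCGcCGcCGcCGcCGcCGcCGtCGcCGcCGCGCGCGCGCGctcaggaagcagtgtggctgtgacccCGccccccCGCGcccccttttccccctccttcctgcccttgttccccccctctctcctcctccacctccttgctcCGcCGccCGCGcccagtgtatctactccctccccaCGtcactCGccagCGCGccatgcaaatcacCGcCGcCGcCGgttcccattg
Hesx1: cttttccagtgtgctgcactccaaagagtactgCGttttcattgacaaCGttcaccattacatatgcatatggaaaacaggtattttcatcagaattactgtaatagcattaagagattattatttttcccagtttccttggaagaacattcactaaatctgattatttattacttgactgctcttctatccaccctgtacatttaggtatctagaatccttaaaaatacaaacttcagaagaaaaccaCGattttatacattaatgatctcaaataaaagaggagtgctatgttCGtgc

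Library totals ranged from 7.10 to 20.8 M (mega) counts, the smallest being wt day 2.5 line 2, and 3 counts, taken as the smallest level a library can show, equal 0.144 to 0.422 counts per M counts (CPM). Such a floor takes in the error of counting and nothing else, since the reads carry no molecular identifiers. A fold against 3 counts over a whole group leaves out the counting error of the higher group and the spread among lines. It is therefore not a lower bound. Smchd1 itself was lower in het than in wt lines on every day without overlap, at 89.4 to 101 against 131 to 149 CPM on day 0 and 104 to 107 against 167 to 207 CPM on day 3, as the labels imply. Between 44.0% and 52.7% of the table's genes were at 0 in a library, and the number of genes at exactly 1 count ran from 221 to 1038, so counts of a few reads were not equally frequent in all libraries. On chromosome 8, where Sox1 and Irx3 lie, wt line 1 had a median log2 ratio to the other lines of 0.22 over 670 genes, while the other 5 lines lay between -0.07 and 0.03. Changes of Sox1 and Irx3 in wt, and the values of both genes nearest to a difference between genotypes, are therefore also given without that line. In bulk RNA, a change in the share of cells that use a gene and a change in the RNA per cell cannot be told apart.

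All 10 genes were low in these cultures. Sox1, Sox3, Pax6, Irx3 and Hesx1 had reads in all 24 libraries, with 5 to 298 counts for Sox1, 13 to 202 for Sox3, 2 to 394 for Pax6, 9 to 109 for Irx3 and 1 to 116 for Hesx1. Hes5 was at 0 in 7 libraries, Hes3 in 8, Pax3 in 10, Neurog2 in 13 and Six3 in 17. Neither Hes3, Six3 nor Neurog2 passed the filter on low counts in any of the 13 comparisons, whereas Sox1, Sox3, Pax6 and Irx3 passed it in 13, Hesx1 in 10, Pax3 in 6 and Hes5 in 3. A gene can pass this filter through the group in which it is high, and a test count over the genes that passed is a description only.

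**Figure D1:**
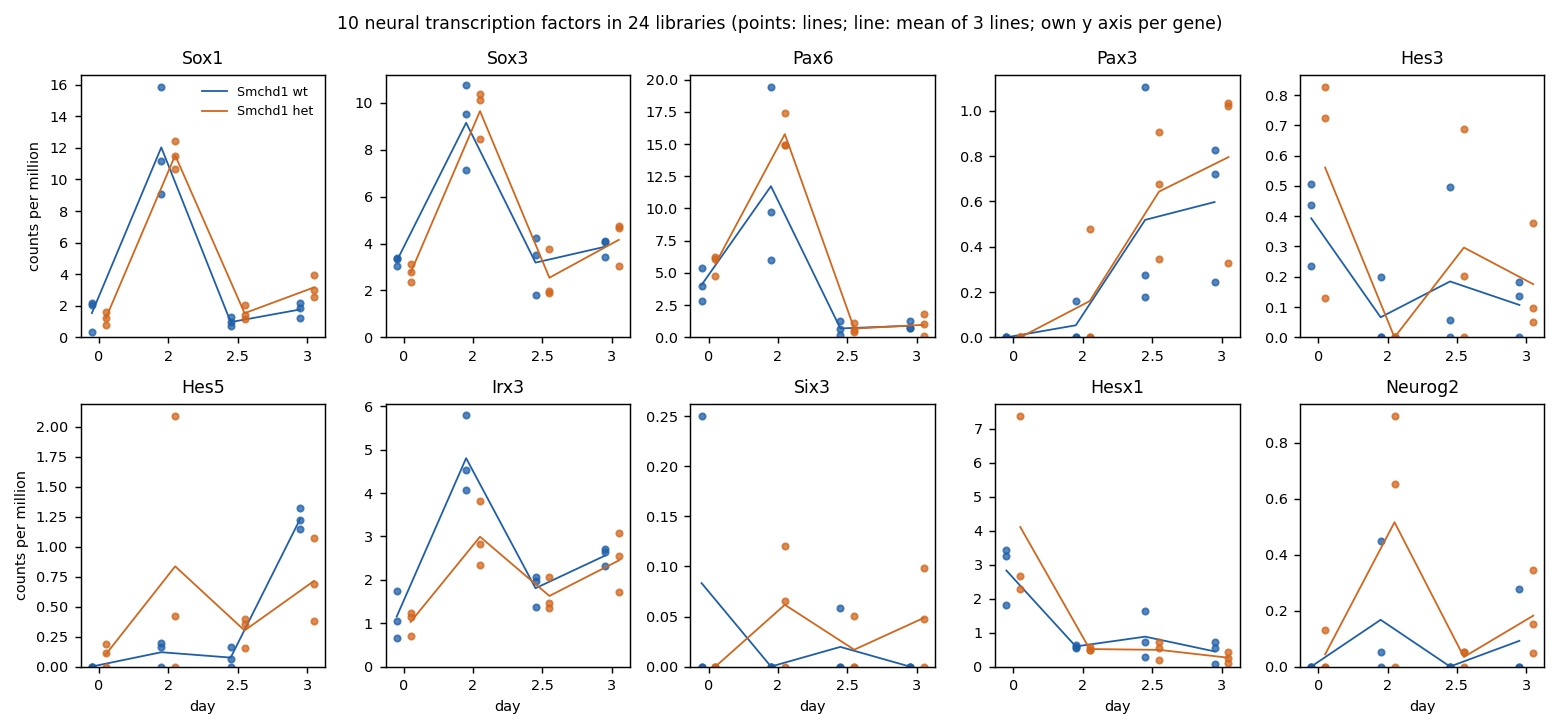
CPM (y axis, scaled separately for each gene and starting at 0) of the 10 genes on days 0, 2, 2.5 and 3 (x axis), with 1 point per line and a line through the mean of 3 lines, in blue for Smchd1 wt and orange for Smchd1 het. Sox1, Sox3, Pax6 and Irx3 were highest on day 2 in both genotypes, Hesx1 was highest on day 0, and Six3 did not exceed 4 counts in any library.

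To ask which of these factors rank highest, levels were divided by exon length, which gives CPM per kilobase of exon. On day 0 Hesx1 and Sox3 led in both genotypes, with 2.27 ± 0.707 and 1.58 ± 0.0945 CPM per kilobase in wt and 3.29 ± 2.27 and 1.33 ± 0.186 in het (SD, n = 3). The ranges of these genes overlapped in the wt lines but not in the het lines, and the remaining 8 genes were at most 0.634 in any line. On day 2 Sox3 led, with 4.43 ± 0.888 CPM per kilobase in wt and 4.67 ± 0.502 in het, above Sox1 with 2.49 ± 0.721 and 2.39 ± 0.186, and the lines did not overlap between these genes.

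Irx3 (1.74 ± 0.324) and Pax6 (1.00 ± 0.592) followed on day 2 in wt and Pax6 (1.35 ± 0.121) and Irx3 (1.08 ± 0.271) in het, all in CPM per kilobase, and the lines of these neighbours overlapped in both genotypes. The lines of Irx3 also overlapped those of Sox1 in wt, whereas in het all lines of Sox1 lay above those of Pax6 and Irx3. On day 2.5 Sox3 had the highest mean, with 1.54 ± 0.608 in wt and 1.23 ± 0.522 in het. Its lines overlapped those of the next gene in wt, Hesx1 (0.705 ± 0.562), but not those of the next in het, Irx3 (0.589 ± 0.138). By then Pax6 was at 0.0593 ± 0.0457 and 0.0581 ± 0.0313 CPM per kilobase. On day 3 Sox3 stood at 1.87 ± 0.189 in wt and 2.01 ± 0.464 in het, and Irx3 and Hes5 came next in wt with overlapping ranges, at 0.926 ± 0.0766 and 0.903 ± 0.0649. The order on day 3 thus kept Sox3 at the head, while Sox1 stood at 0.365 ± 0.106 in wt and 0.655 ± 0.147 in het. These orders are descriptions without a test.

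**Figure D2:**
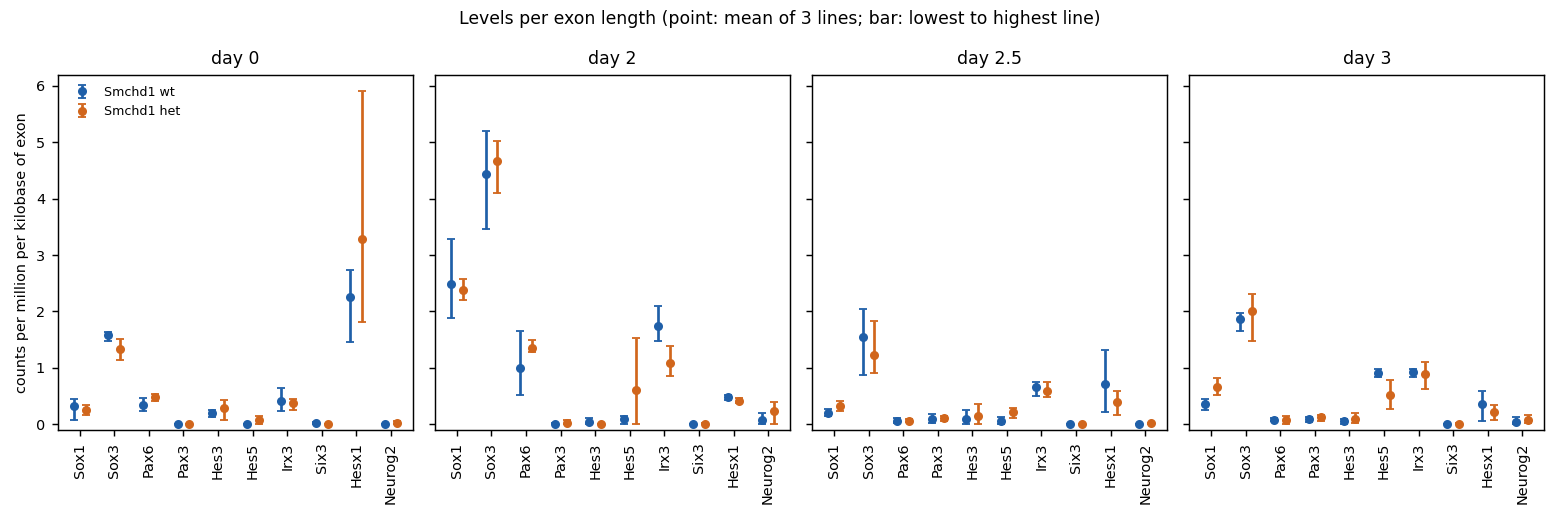
CPM per kilobase of exon (y axis) of the 10 genes (x axis) on each of the 4 days, with points at the mean of 3 lines and bars from the lowest to the highest line, blue for Smchd1 wt and orange for Smchd1 het. Hesx1 and Sox3 stood above the other genes on day 0. Sox3 led on day 2, followed by Sox1, whose wt lines overlapped those of Irx3.

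The step from day 0 to day 2 compares cells in medium with LIF with cells after bFGF treatment in the same lines. Sox1, Sox3, Pax6 and Irx3 rose and Hesx1 fell in both genotypes. In wt this was 4 genes higher and 1 lower of the 10 (5 passed the filter), beside 22.4% of 15521 genes tested that were higher and 21.9% that were lower. In het it was again 4 higher and 1 lower, with 5 that passed the filter, beside 28% higher and 28.1% lower of 15303 genes tested. The test was edgeR's quasi-likelihood test, and genes are said to rise or fall at a Benjamini-Hochberg adjusted p under 0.05 over all genes tested. Values after ± are standard errors (SE) for log2 fold changes. They were computed as the size of the log2 fold change over the square root of the F statistic of the test.

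Sox1, the SOXB1 factor of newly formed neuroectoderm, had 2.19, 2.06 and 0.361 CPM in wt lines 1, 2 and 3 on day 0 and 9.08, 15.9 and 11.1 CPM on day 2. In het lines 1, 2 and 3 it had 1.23, 0.763 and 1.62 CPM on day 0 and 11.5, 10.7 and 12.5 CPM on day 2. Every line was higher on day 2 than any line on day 0. The log2 fold change of Sox1 was 2.94 ± 0.47 in wt (adjusted p = 0.000173) and 3.26 ± 0.30 in het (adjusted p = 2.25e-07). Without wt line 1 the wt value of Sox1 was 3.43 (adjusted p = 0.000304).

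Sox3, the X-linked relative of Sox1, was already measurable on day 0, with 3.38, 3.36 and 3.03 CPM in wt lines 1 to 3 and 2.79, 2.35 and 3.12 CPM in het lines 1 to 3. On day 2 it had 7.15, 10.8 and 9.55 CPM in wt and 8.46, 10.4 and 10.1 CPM in het. The day 2 lines lay above all day 0 lines, with a smaller change than that fitted for Sox1. Sox3 rose by a log2 fold change of 1.49 ± 0.30 in wt (adjusted p = 0.00115) and 1.81 ± 0.26 in het (adjusted p = 2.01e-05).

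Pax6, a master gene of eye and forebrain development, had 5.38, 4.01 and 2.81 CPM in wt and 4.80, 6.10 and 6.24 CPM in het on day 0. On day 2 it had 19.4, 9.74 and 6.01 CPM in wt lines 1, 2 and 3, and 17.4, 15.0 and 14.9 CPM in het lines. The wt lines were spread widely on day 2 and the het lines narrowly, yet days did not overlap in either genotype. Pax6 rose by a log2 fold change of 1.53 ± 0.40 in wt (adjusted p = 0.00651) and 1.48 ± 0.19 in het (adjusted p = 1.02e-05). Beside the spread of Pax6 among the wt lines, the summed level of 8 endoderm markers (Gata4, Gata6, Sox17, Sox7, Foxa2, Dab2, Col4a1 and Lama1) on day 2 was 3820, 5550 and 7870 CPM in wt lines 1, 2 and 3, and 2290, 3210 and 3030 CPM in het lines. The part of such cells in the spread of Pax6 was not tested.

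Irx3, an Iroquois factor of the posterior neural tube, had 1.75, 1.06 and 0.650 CPM in wt and 1.23, 1.14 and 0.715 CPM in het on day 0. On day 2 it had 4.54, 5.80 and 4.08 CPM in wt and 2.82, 3.81 and 2.35 CPM in het. Irx3 rose by a log2 fold change of 2.05 ± 0.48 in wt (adjusted p = 0.00326) and 1.54 ± 0.48 in het (adjusted p = 0.0124). The wt value was 2.52 (adjusted p = 0.00211) without wt line 1. The call on Irx3 was lost without wt line 2 (adjusted p = 0.0515), without het line 1 (adjusted p = 0.0507) and without het line 2 (adjusted p = 0.0767).

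Hesx1, a forebrain and pituitary factor that is also known from pluripotent cells, moved the other way. It had 1.81, 3.42 and 3.25 CPM in wt and 2.68, 7.37 and 2.27 CPM in het on day 0. On day 2 it had 0.543, 0.586 and 0.646 CPM in wt and 0.480, 0.477 and 0.587 CPM in het, so that all 6 lines were lower than any line on day 0, and het line 2 stood apart on day 0. Hesx1 fell in both genotypes, by a log2 fold change of -2.23 ± 0.62 in wt (adjusted p = 0.00959) and -2.97 ± 0.56 in het (adjusted p = 0.000344). The wt call was lost without line 2 (adjusted p = 0.104) or line 3 (adjusted p = 0.0972). Over the same step, all 6 markers of undifferentiated cells (Klf4, Nanog, Zfp42, Esrrb, Tbx3 and Tfcp2l1) fell in both genotypes, their sum going from 1150 to 1190 CPM to 110 to 163 CPM in wt and from 1180 to 1360 CPM to 144 to 177 CPM in het. Endoderm markers rose over this step too, 6 of 8 in each genotype with 0 lower (median log2 fold change 1.37 in wt and 1.23 in het), from sums of 1070 to 1970 CPM in wt and 549 to 857 CPM in het on day 0. Their part in the changes of the neural factors was not tested. Of 5 epiblast-like markers (Fgf5, Otx2, Dnmt3b, Pou3f1 and Pim2), 3 rose in wt and 4 in het, to sums of 1540 to 1840 CPM and 1740 to 1890 CPM on day 2.

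The other 5 genes did not pass the filter at this step. Hes3, a Hes-family repressor, had 7, 4 and 7 counts in wt and 13, 13 and 2 in het on day 0, and 0, 0 and 4 in wt and 0, 0 and 0 in het on day 2. Hes3 in het on day 0 was 8.95-fold higher than a floor of 3 counts over the day 2 group. In the fit without a filter, this was the only added gene of the 10 past the threshold (adjusted p = 0.0122), whereas in wt Hes3 had an adjusted p of 0.430 in that fit. Without het line 3, Hes3 passed the filter and the threshold (adjusted p = 0.00826), which made 6 of the 10 genes.

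Neurog2, the proneural gene, had at most 2 counts in any library on day 0, and 0, 1 and 9 counts in wt and 0, 15 and 10 in het on day 2. Hes5 had 0 counts in the wt lines and 2, 3 and 0 in het on day 0, and 0, 3 and 4 counts in wt and 7, 0 and 32 in het on day 2, so a single het line carried most of its reads. Pax3, the dorsal neural tube gene, was at 0 in all 6 libraries of day 0 and had 0, 3 and 0 counts in wt and 8, 0 and 0 in het on day 2. On day 2 each of Pax3, Hes5 and Neurog2 thus had reads in some lines and none in others, which at this depth gave no tested difference. Six3 had 4 counts in 1 wt line on day 0 and no more than 2 in any library afterwards.

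The step from day 2 to day 2.5 followed the activation of Wnt signalling. Sox1, Sox3 and Pax6 fell in both genotypes, and Irx3 fell in wt. None of the 10 genes rose. In wt 4 of the 10 were lower, with 5 that passed the filter, beside 14.5% of 15540 genes tested that were lower and 14.6% that were higher. In het 3 of the 10 were lower, with 4 that passed the filter, beside 22.9% lower and 21.8% higher of 15577 genes tested.

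Pax6 had the largest fitted fall among the genes that passed the filter, with all lines in the fit. Without wt line 1 the wt value of Sox1 (log2 -3.97) was below that of Pax6 (log2 -3.80). It had 0.660, 1.24 and 0.177 CPM in wt lines 1 to 3 and 0.540, 1.09 and 0.404 CPM in het lines 1 to 3 on day 2.5, from 3 to 21 counts a library. All of these values were below every value of Pax6 on day 2 and also below every value on day 0. Pax6 fell in both genotypes, by a log2 fold change of -4.28 ± 0.58 in wt (adjusted p = 0.000212) and -4.55 ± 0.32 in het (adjusted p = 1.3e-07), which is 19.4-fold and 23.4-fold lower.

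Sox1 had 1.26, 0.690 and 0.942 CPM in wt and 1.42, 1.15 and 2.02 CPM in het on day 2.5. These values lay within the day 0 range of the same genotype, except in het line 3, which was above it, and all were far below day 2. Sox1 fell in both genotypes, by a log2 fold change of -3.57 ± 0.36 in wt (adjusted p = 2.24e-05) and -2.93 ± 0.28 in het (adjusted p = 1.9e-06). Without wt line 1, the wt value of Sox1 was -3.97 (adjusted p = 1.26e-05).

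Sox3 had 4.23, 1.80 and 3.53 CPM in wt and 1.97, 1.88 and 3.79 CPM in het on day 2.5, a range that spanned its day 0 values in each genotype. Sox3 fell in both genotypes, by a log2 fold change of -1.48 ± 0.34 in wt (adjusted p = 0.00557) and -1.95 ± 0.30 in het (adjusted p = 0.000133). The wt call on Sox3 was lost without line 2 (adjusted p = 0.0788), the line with the smallest library. The fitted fall of Sox3 was smaller than those of Pax6 and Sox1 in both genotypes, and this order was not tested.

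Irx3 had 1.98, 1.38 and 2.06 CPM in wt and 2.06, 1.36 and 1.46 CPM in het on day 2.5. All lines were lower than on day 2 without overlap within a genotype. The log2 fold change of Irx3 was -1.38 ± 0.38 in wt (adjusted p = 0.0148) and -0.90 ± 0.43 in het (adjusted p = 0.108), of which the first passed the threshold. Without wt line 1 it was -1.47 (adjusted p = 0.0322), and the wt call was lost without line 2 (adjusted p = 0.144) or line 3 (adjusted p = 0.0534).

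Hesx1 had 0.715, 0.276 and 1.65 CPM in wt and 0.540, 0.730 and 0.202 CPM in het on day 2.5. The wt lines overlapped those of day 2, with a log2 fold change of 0.63 ± 0.75 (adjusted p = 0.569), and Hesx1 was not tested in het. Pax3, which was at 0 in all libraries of day 0, now had reads in all 6, with 5, 8 and 3 counts in wt and 7, 13 and 18 in het. Pax3 on day 2.5 was 6.20-fold higher than a floor of 3 counts over the day 0 group in wt and 11.3-fold higher in het. Between day 2 and day 2.5 Pax3 passed the filter and the test only when het line 1 was left out (adjusted p = 0.0198), as did Neurog2, which was then lower (adjusted p = 0.0400), and this raised the het count to 5 of the 10. With all lines and no filter, Pax3 in het had an adjusted p of 0.270 and Neurog2 0.110.

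Markers of the target cells rose at this step. All 6 markers of NMPs and primitive streak (T, Nkx1-2, Sp5, Fgf8, Wnt3a and Cdx2) rose in both genotypes, from a sum of 2.19 to 5.91 CPM to 483 to 966 CPM in wt and from 3.18 to 6.38 CPM to 637 to 841 CPM in het. All 5 epiblast-like markers fell, to sums of 603 to 779 CPM in wt and 589 to 694 CPM in het. The 6 paraxial mesoderm markers (Tbx6, Msgn1, Mesp1, Mesp2, Meox1 and Tcf15) summed to 2.90 to 7.60 CPM in wt and 4.03 to 4.49 CPM in het on day 2.5, with Mesp1 at 0 in all wt libraries. The endoderm markers summed to 3000 to 7800 CPM in wt and 3090 to 4570 CPM in het, and over this step 0 of 8 were called in wt, while in het 6 rose and 0 fell (median log2 fold change 0.08 and 0.59). How far changes in the share of these cells enter the falls of Sox1, Sox3, Pax6 and Irx3 was not tested.

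**Figure D3:**
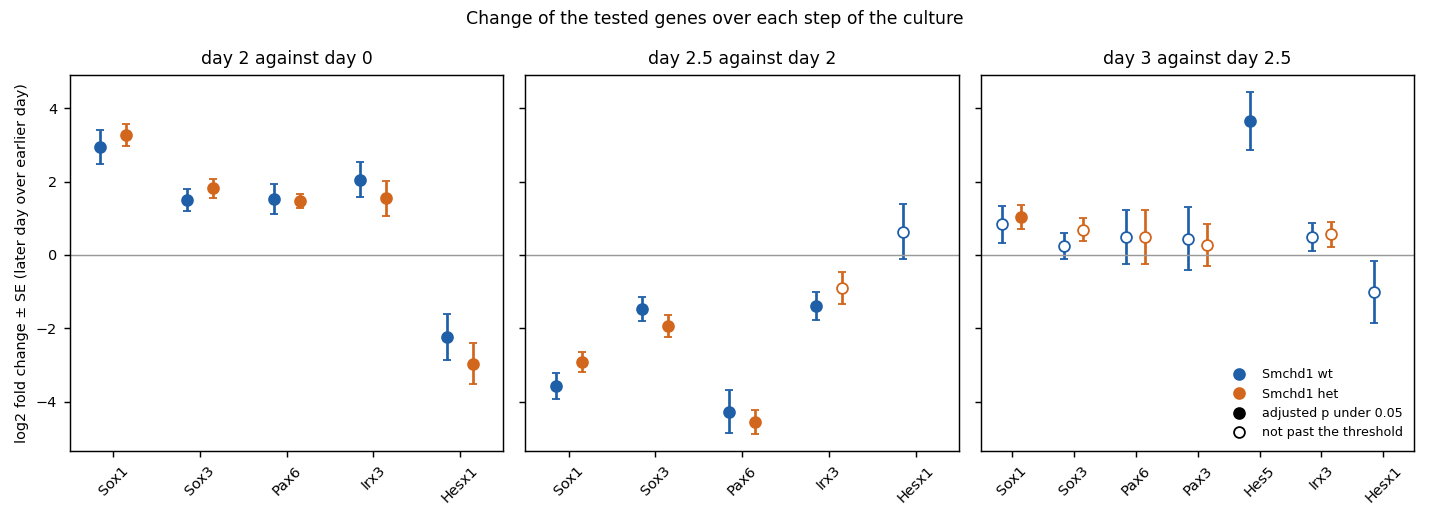
Log2 fold change ± SE (y axis, later day over earlier day) of the genes that passed the filter (x axis) over each of 3 steps, blue for Smchd1 wt and orange for Smchd1 het, with filled points past an adjusted p of 0.05 and open points not past it. Sox1, Sox3, Pax6 and Irx3 lay above 0 in the first step and below 0 in the second, and Hes5 in wt (3.66) and Sox1 in het (1.02) were the only filled points of the third.

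From day 2.5 to day 3, 1 of the 10 genes rose in each genotype, and it was a different one. Hes5 rose in wt and Sox1 rose in het, and none of the 10 fell. In wt 7 of the 10 passed the filter, beside 8.99% of 15292 genes tested that were higher and 10.1% that were lower. In het 5 passed it, beside 13.8% higher and 16% lower of 15801 genes tested.

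Hes5, the Notch target whose promoter window holds both RBPJ matches printed above, had 3, 0 and 1 counts in wt lines 1 to 3 on day 2.5 and 25, 22 and 20 counts on day 3. In CPM this is 0.165, 0 and 0.0589 against 1.15, 1.32 and 1.22, with no overlap and with a narrow spread on day 3. Hes5 in wt rose by a log2 fold change of 3.66 ± 0.79 (adjusted p = 0.0112). Its wt day 0 libraries were at 0, and Hes5 on day 3 was 20.4-fold higher than the floor of 3 counts over that group. The call was lost without wt line 2 (adjusted p = 0.107) or line 3 (adjusted p = 0.0986).

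In het, Hes5 had 8, 3 and 7 counts on day 2.5 and 21, 8 and 14 on day 3, or 0.393, 0.157 and 0.353 CPM against 1.07, 0.377 and 0.689 CPM. Each het line was higher on day 3 than on day 2.5, but the days overlapped and Hes5 did not pass the filter there. In the fit without a filter its log2 fold change in het was 1.23 (adjusted p = 0.308). The difference between genotypes in the change of Hes5, het minus wt, was -2.46 ± 1.07 on the log2 scale (adjusted p = 0.999), so a different response of Hes5 in the genotypes was not shown.

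Sox1 had 2.20, 1.20 and 1.89 CPM in wt and 3.94, 2.54 and 3.00 CPM in het on day 3. Each of the 6 lines was higher than the same line on day 2.5, and in het the days did not overlap. The log2 fold change of Sox1 was 1.02 ± 0.33 in het (adjusted p = 0.0351) and 0.84 ± 0.50 in wt (adjusted p = 0.267), the latter 0.88 (adjusted p = 0.486) without wt line 1. The het call was lost when any single het line was left out (adjusted p from 0.0735 to 0.201) and in one fit of all 24 libraries (adjusted p = 0.0684). The difference between genotypes in this change of Sox1, het minus wt, was 0.21 ± 0.55 (adjusted p = 0.999), and from -0.022 to 0.48 when single lines were left out.

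Sox3 had 4.09, 4.09 and 3.41 CPM in wt and 4.76, 4.67 and 3.05 CPM in het on day 3, with log2 fold changes of 0.24 ± 0.35 (adjusted p = 0.669) and 0.69 ± 0.32 (adjusted p = 0.130). Irx3 had 2.71, 2.65 and 2.32 CPM in wt and 3.07, 2.54 and 1.72 CPM in het, with log2 fold changes of 0.48 ± 0.38 (adjusted p = 0.404, and 0.49 without wt line 1) and 0.56 ± 0.35 (adjusted p = 0.249). Irx3 was higher on day 3 than on day 2.5 in all 6 lines, and Sox3 in 1 wt and 2 het lines, but neither passed the threshold with all lines. Without het line 3, the het line in which Sox3 was lower on day 3, the het value of Sox3 was 1.28 (adjusted p = 0.0375). Pax6 remained low, with 0.689, 0.722 and 1.28 CPM in wt and 1.79, 1.04 and 0.0985 CPM in het, and had adjusted p values of 0.677 and 0.658.

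Pax3 had 18, 12 and 4 counts in wt and 20, 7 and 21 in het on day 3. Against the floor over the day 0 group, this is 10.4-fold higher in wt and 14.0-fold higher in het. Its change from day 2.5 was not past the threshold in either genotype (adjusted p = 0.753 and 0.752). Hesx1 had 0.735, 0.542 and 0.0609 CPM in wt and 0.256, 0.424 and 0.0985 CPM in het, with an adjusted p of 0.428 in wt. Hes3, Six3 and Neurog2 had at most 8, 2 and 7 counts in any library of day 3.

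On day 3 the markers of NMPs and primitive streak summed to 412 to 607 CPM in wt and 390 to 775 CPM in het, and those of paraxial mesoderm to 11.8 to 24.9 CPM and 9.33 to 24.4 CPM. The epiblast-like markers summed to 169 to 233 CPM in wt and 246 to 337 CPM in het, with 3 of 5 lower and 0 higher than on day 2.5 in wt and 2 lower and 1 higher in het. The endoderm markers summed to 2730 to 5540 CPM in wt and 2040 to 3420 CPM in het, with 0 of 8 called over the last step in wt and 2 lower in het. Defining markers of endoderm, among them Gata4, Sox17 and Foxa2, had reads in at least 1 library of every group on each day. This gives no level for them, and the endoderm sums also hold Col4a1 and Lama1.

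The comparison of het with wt lines asks whether a single working copy of Smchd1 alters these factors at a given day. None of the 10 genes passed the threshold on any day. On day 0, 5 genes passed the filter and 0 were called, with 0 at an unadjusted p under 0.05, beside 0% of 15108 genes tested that were called in either direction. On day 2 the same counts were 5, 0 and 0, beside 0.551% of 15414 genes. On day 2.5 they were 6, 0 and 0, beside 0% of 15588 genes, and on day 3 they were 6, 0 and 1, beside 0.00638% of 15686 genes. The DESeq2 Wald test, whose own filter leaves low genes without an adjusted p, gave one for 0 of the 10 genes on day 0, 4 on day 2, 6 on day 2.5 and 3 on day 3, and called 0 of these.

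With all lines, the values closest to a difference, by unadjusted p, were those of Sox1 on day 3 and Irx3 on day 2. For Sox1 the log2 fold change of het over wt on day 3 was 0.82 ± 0.34 (adjusted p = 0.517), with means of 3.16 ± 0.711 CPM in het and 1.77 ± 0.512 CPM in wt (SD, n = 3). Without wt line 1 the value for Sox1 was 1.02 (adjusted p = 0.248). For Irx3 on day 2 it was -0.69 ± 0.37 (adjusted p = 0.571), with means of 2.99 ± 0.748 CPM in het and 4.81 ± 0.894 CPM in wt (SD, n = 3), and it was -0.73 (adjusted p = 0.586) without wt line 1. For Hes5 on day 3 the value was -0.80 ± 0.51 (adjusted p = 0.683).

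The remaining genes showed smaller or less precise differences. Sox3 lay between -0.37 ± 0.40 on day 2.5 and 0.09 ± 0.27 on day 3 on the log2 scale, het over wt. Pax6 lay between 0.11 ± 0.74 on day 3 and 0.46 ± 0.30 on day 0, and its SE was 0.74 on both day 2.5 and day 3, when its counts were low. The day 2 value of Pax6, 0.42, ran from 0.11 to 0.99 when single lines were left out, and without wt line 1, the highest wt line, it was 0.99 (unadjusted p = 0.0011, adjusted p = 0.0700). Hesx1 went from 0.52 ± 0.46 on day 0 to -0.91 ± 0.72 on day 2.5, the latter from -1.30 to -0.11 when single lines were left out and -0.11 without wt line 3, in which Hesx1 was highest. The SE of the tested values ran from 0.23 (Sox1, day 2) to 0.84 (Hesx1, day 2) on this scale, where 1 is a 2-fold difference, so small differences were not detectable with 3 lines a group. Beside these comparisons, the endoderm markers were fitted lower in het on all 4 days, 8 of 8 each day, with 6 of 8 past the threshold on day 2, and the part of this in the values above was not tested.

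**Figure D4:**
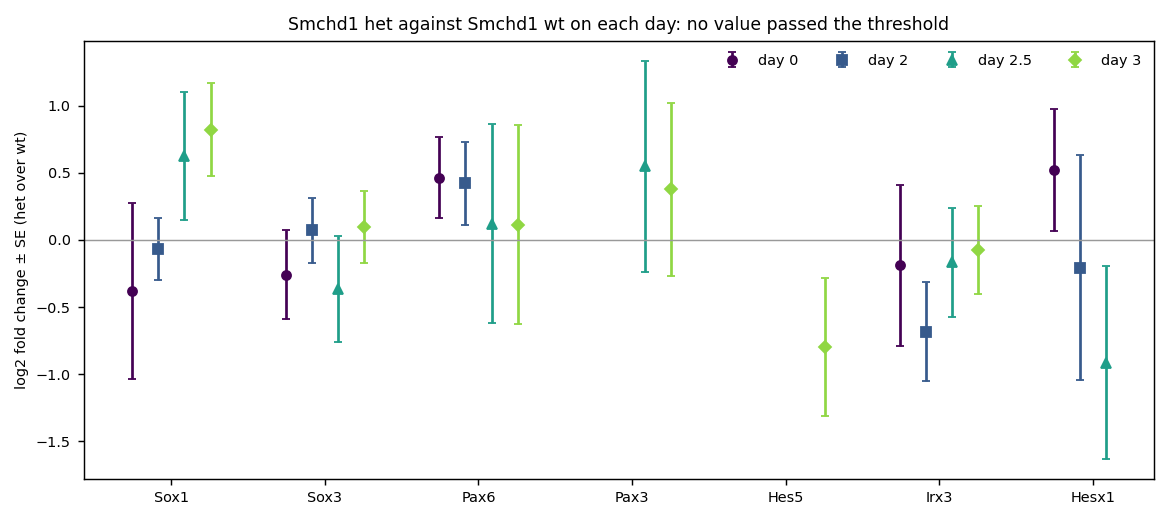
Log2 fold change ± SE of Smchd1 het over Smchd1 wt (y axis) for the genes that passed the filter (x axis), with 1 symbol and colour for each day. All values had an adjusted p of 0.517 or more and lay between -0.91 (Hesx1, day 2.5) and 0.82 (Sox1, day 3).

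The interaction of genotype with each step asks whether het lines changed differently from wt lines between days. From day 0 to day 2, 0 of the 5 genes tested were called, beside 0% of 16387 genes, and from day 2 to day 2.5, 0 of 6, beside 0% of 16569 genes. From day 2.5 to day 3, 0 of 7 were called, beside 0% of 16486 genes. At an unadjusted p under 0.05 there were 0, 0 and 1 genes, the last being Hes5, and the DESeq2 Wald test also called 0 of the genes at each step. For Pax6 between day 2 and day 2.5, the difference between genotypes was -0.25 ± 0.74 on the log2 scale (adjusted p = 0.987), and it ran from -0.79 to 0.36 when single lines were left out. For Sox1 at the same step it was 0.65 ± 0.43 (adjusted p = 0.952), and without wt line 1 it was 1.07 (unadjusted p = 0.0374, adjusted p = 0.811).

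Further genes of the neural lineage were read from lists, of which the first holds 20 neural progenitor factors. From day 0 to day 2, 9 of these rose and 4 fell in wt (median log2 fold change 0.79 of 15 tested, against 0.02 over all genes), and 8 rose and 4 fell in het (0.88 of 15 against 0.01). Sox4 and Sox11, SOX factors of progenitors and young neurons, rose in wt by 1.06 ± 0.14 and 1.20 ± 0.15, and Msi1, an RNA-binding protein of neural stem cells, rose in het by 2.15 ± 0.17 (log2). Their counts, and those of the lists that follow, stand beside the shares of all genes that were called at each step, which for this one were 22.4% higher and 21.9% lower in wt and 28% and 28.1% in het. The list thus moved in both directions as Sox1, Sox3 and Pax6 rose and Hesx1 fell.

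From day 2 to day 2.5, 2 of the progenitor factors rose and 5 fell in wt (median -0.30 of 17 tested) and 3 rose and 6 fell in het (-0.17 of 16), with medians of 0.00 and 0.01 over all genes. Zic2 fell in both genotypes (log2 -2.15 ± 0.15 in wt and -2.13 ± 0.10 in het), and Zic5 fell in het (log2 -2.17 ± 0.10). Pou3f1, a POU factor that is also on the epiblast-like list, fell in wt (log2 -3.16 ± 0.20) and, like all of that list, in het. Cdh2, the adhesion protein N-cadherin, rose by 2.17 ± 0.31 in wt and 2.36 ± 0.16 in het, and Zeb2, a repressor of E-cadherin, rose by 1.29 ± 0.28 and 1.93 ± 0.27. Cdh2 and Zeb2 are used by mesoderm as well as by neural cells. From day 2.5 to day 3, 3 rose and 0 fell of 17 tested in wt (median 0.41), beside 8.99% higher and 10.1% lower of all genes, and 10 rose and 0 fell of 17 in het (median 0.45), beside 13.8% and 16%. The difference between these counts was not tested. Among the genes that rose in both were Fabp7, a fatty acid binding protein of radial glia, by 3.51 ± 0.39 and 4.88 ± 0.44 and Ncam1, a neural adhesion molecule, by 2.30 ± 0.32 and 1.87 ± 0.26 (log2, wt and het).

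Most regional factors of the brain were too low to test. Of 15 forebrain and midbrain factors, 2 or 3 passed the filter at any step. Otx2, the homeobox factor of the anterior brain that is also an epiblast gene, rose by 0.38 ± 0.11 in het from day 0 to day 2 (log2) and then fell from day 2 to day 2.5 (log2 -3.43 ± 0.20 in wt and -3.56 ± 0.16 in het), and En2, of the midbrain and hindbrain boundary, fell in het from day 2.5 to day 3 (log2 -1.26 ± 0.29). Six3, which belongs to the same region, stayed at or near 0 counts throughout.

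Of 23 hindbrain and spinal cord factors, 10 to 14 were tested at a step. From day 0 to day 2, 1 rose and 2 fell of 13 tested in wt and 2 rose and 0 fell of 10 in het, all smaller shares than those of all genes. From day 2 to day 2.5, 2 rose and 1 fell of 12 in wt, beside 14.6% higher and 14.5% lower of all genes, and 5 rose and 0 fell of 13 in het, beside 21.8% and 22.9%. Gbx2, which sets the front of the hindbrain, had a mean of 27.3 CPM in wt on day 0, in undifferentiated cells. It fell in wt (log2 -0.86 ± 0.27) from day 0 to day 2. From day 2 to day 2.5 it rose by 1.78 ± 0.24 in wt and 1.18 ± 0.14 in het (log2). Msx1, a homeobox gene of the dorsal tube, rose by 2.65 ± 0.59 and 1.65 ± 0.47 at that step and again by 1.45 ± 0.24 and 1.10 ± 0.22 from day 2.5 to day 3. Olig1 and Olig2, basic helix-loop-helix factors of the ventral cord, fell at the last step, with log2 fold changes of -2.01 ± 0.32 and -1.59 ± 0.46 in wt and of -1.05 ± 0.27 and -1.09 ± 0.30 in het, among 2 that fell and 1 that rose of 12 tested in wt and 3 that fell and 1 that rose of 14 in het. The shares of all genes at that step were 10.1% lower and 8.99% higher in wt and 16% and 13.8% in het.

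Of 14 proneural and neuronal genes, 7 were tested at each step within a genotype. From day 0 to day 2, 2 rose and 3 fell in wt and 1 rose and 3 fell in het (median log2 fold change -0.99 and -0.73). Elavl3, a neuronal RNA-binding protein, rose by 1.55 ± 0.23 in wt and 1.98 ± 0.23 in het (log2), and Elavl4 rose by 1.06 ± 0.38 in wt. Stmn2 and Tubb3, cytoskeletal genes of neurons, fell, with log2 fold changes of -1.81 ± 0.11 and -1.33 ± 0.15 in wt and of -1.65 ± 0.08 and -1.12 ± 0.09 in het. Both were already present in the undifferentiated cells of day 0, with means of 216 and 120 CPM in wt. From day 2 to day 2.5, 2 fell in wt and 3 in het with none higher, and Elavl3 was at -2.14 ± 0.25 and -2.60 ± 0.18. Elavl3 thus rose and fell at the same steps as Sox1, Sox3 and Pax6. At the last step Tubb3 was the only one called in either genotype, and it fell (log2 -0.92 ± 0.27 in wt and -0.51 ± 0.10 in het).

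Of 18 further Notch pathway genes, 15 to 17 were tested at a step, and from day 2.5 to day 3, as Hes5 rose in wt, 6 rose and 1 fell in wt (median log2 fold change 0.76 against 0.00 over all genes) and 8 rose and 1 fell in het (0.69 against -0.02). Dll1, a Notch ligand, rose by 2.39 ± 0.33 in wt and Hes1, another Notch target, by 0.99 ± 0.16 in wt, while Notch1, a receptor, rose by 1.34 ± 0.15 and Rbpj, which encodes the DNA-binding protein, by 0.69 ± 0.10 in het (log2). Hes6, which counteracts Hes1, fell (log2 -1.02 ± 0.16 in wt and -0.47 ± 0.16 in het). These counts stand beside 8.99% higher and 10.1% lower of all genes in wt and 13.8% and 16% in het. One step earlier 1 was higher and 3 were lower of 15 tested in wt, beside 14.6% and 14.5% of all genes, and 3 were higher and 7 lower of 16 in het, beside 21.8% and 22.9%. At that step Jag1, another ligand, rose by 0.96 ± 0.32 in wt and 0.85 ± 0.22 in het and Maml1, a coactivator, by 0.39 ± 0.14 in het (log2), Dll1 fell (log2 -1.96 ± 0.32 in wt and -2.53 ± 0.21 in het), and so did Rbpj (-1.51 ± 0.16 and -1.79 ± 0.10). From day 0 to day 2, 2 rose and 3 fell in wt and 6 rose and 3 fell in het, with Dll1 and Notch3, a receptor, higher in het (log2 1.09 ± 0.16 and 0.55 ± 0.10), Hes1 and Hes6 higher in wt (0.77 ± 0.23 and 0.69 ± 0.19), and Jag1 lower in both (log2 -1.52 ± 0.29 and -1.11 ± 0.20).

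Of 6 neural crest markers, at most 4 were tested at a step. Foxd3, which is also a pluripotency factor, fell (log2 -3.05 ± 0.51 in wt and -2.59 ± 0.35 in het) from day 0 to day 2, and Ets1 rose by 1.19 ± 0.32 and 1.26 ± 0.27 (log2), 1 higher and 1 lower in each genotype. From day 2 to day 2.5, 1 fell in wt and 2 fell in het, and from day 2.5 to day 3, 0 were called in wt and Ets1 rose by 1.34 ± 0.16 in het. Between het and wt lines, edgeR tested 50, 57, 59 and 59 of the 96 genes of these 6 lists on days 0, 2, 2.5 and 3 and called 0, with 3, 4, 4 and 13 at an unadjusted p under 0.05. Over all genes tested, 1649 of 15108, 1576 of 15414, 822 of 15588 and 1432 of 15686 had such a p. The count of the lists was thus a smaller share than that of all genes on days 0 and 2 and a larger one on days 2.5 and 3, with no test of the difference. The DESeq2 Wald test called 0, 1 (Notch2), 0 and 1 (Pou3f1), genes named after their values were seen.

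**Figure D5:**
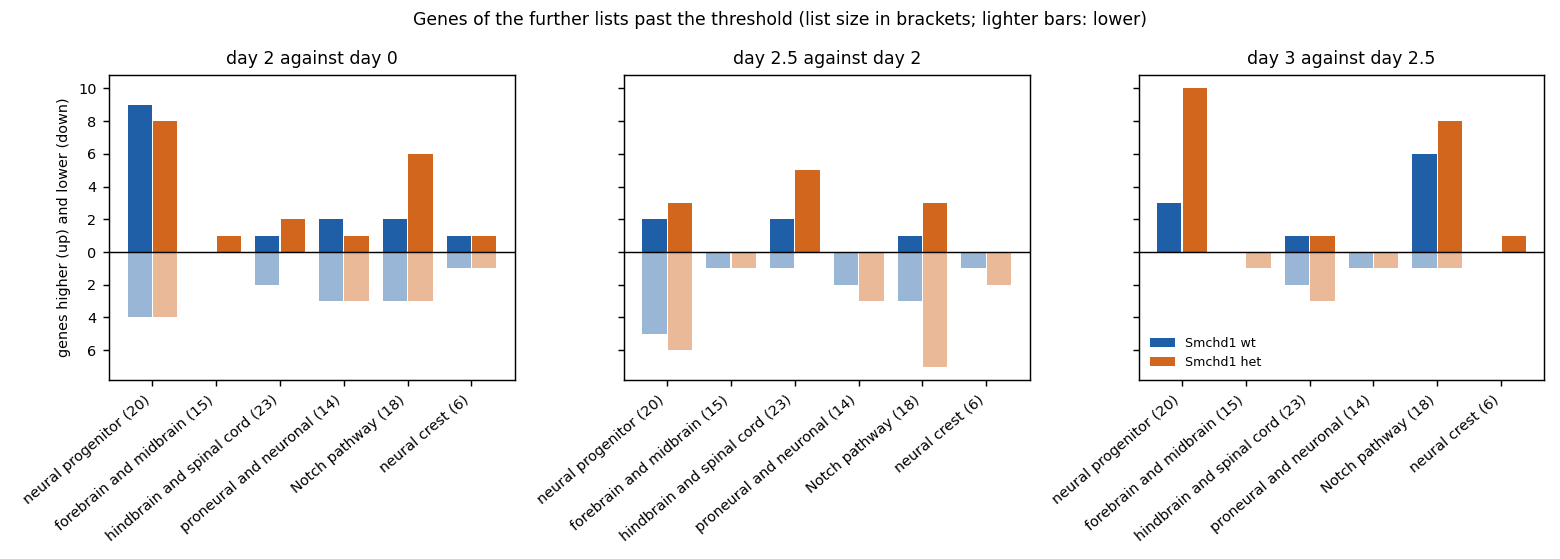
Number of genes past the threshold (y axis, higher above 0 and lower, in lighter bars, below 0) in each of 6 further lists (x axis, list size in brackets) over 3 steps, blue for Smchd1 wt and orange for Smchd1 het. Neural progenitor factors had the most genes higher from day 0 to day 2 (9 in wt, 8 in het), and Notch pathway genes had 1 and 3 higher and 3 and 7 lower at the second step, and 6 and 8 higher and 1 lower in each genotype at the third.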

How the data were processed

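Total RNA (100 ng) went into TruSeq mRNA libraries, stranded or not stranded (the kit of each library is not given in the sources used here). After trimming with TrimGalore 0.4.4, the authors aligned the single-end reads with hisat2 2.0.5 to GRCm38.p6 and counted reads per gene in SeqMonk. The deposited values are raw counts per gene, with no normalization. The counting rule for overlapping genes is not given in the sources used here. The 8 columns of group means and a pair of log2 tables without any of the 10 genes were not used, and 0 per-sample columns were left unmatched. The 9 rows without an identifier were matched to no annotation.

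Counts were fitted in R 4.3.3 with edgeR 4.0.16 (TMM factors, filterByExpr by group, quasi-likelihood test), each comparison in its own libraries, and adjusted over all genes by Benjamini-Hochberg. CPM values use TMM factors over the 24 libraries. No pair of libraries of a group was identical. The replicate is the line. The 4 libraries of a line share its number, which pairs days within a genotype by design, and their deviations from the group means correlated at -0.07 to 0.31 across genes, which are not independent replicates. A wt and a het line of the same number are different lines. Alternatives were DESeq2 size factors, library totals, no filter beyond 1 count, the Wald test of DESeq2 1.42.0, a joint fit of the 24 libraries, a replicate block for the line, and leaving out each line. Counts were also simulated at the depths of wt day 2.5 against day 2. The edgeR test called 200 of 200 genes changed 4-fold and 11 others (15536 genes). In a second run it called 166 of 200 genes changed 2-fold and 7 others (15520 genes). These calls were not split by level or by spread among lines. They therefore give no rate of detection for low genes such as those described here.

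The 10 genes and all lists were chosen with earlier results of these data known. From each list and step, the rule named up to 2 genes in each direction, those of lowest adjusted p, if the days did not overlap and 1 day had a mean of at least 50 counts. Some genes that this rule names are not reported here, and not every gene it names is repeated for each step. Identifiers were matched to GENCODE vM21 (35545 found). Python 3.11.15 with matplotlib 3.10.9 drew the figures.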

Additional observations from a re-analysis of the deposited data

How the results depend on the processing

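The directions of the called changes of Sox1, Sox3, Pax6, Irx3, Hesx1 and Hes5 were the same under every alternative listed in the methods. The number of the 10 genes called ranged, when single lines were left out, from 3 to 5 in wt and 4 to 6 in het for day 2 against day 0, from 2 to 4 in wt and 3 to 5 in het for day 2.5 against day 2, and from 0 to 1 in each genotype for day 3 against day 2.5, where the 1 in het was Sox3, without line 3. The single gene called in het at the last step, Sox1, was not called in one fit of all 24 libraries (0 genes). With the line as a replicate block (paired fit), the same numbers of the 10 genes were called as without it, 5, 4 and 1 in wt and 5, 3 and 1 in het, while over all genes the wt count for day 3 against day 2.5 went from 2923 to 4687 and that of the first interaction from 0 to 2. The block changed no other count of the 10 genes. Without wt line 2, which has the smallest library, the wt day 3 against day 2.5 fit called 29 genes in all, and the range over left-out lines was 29 to 3098.

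Values that were not called, interactions included, could change sign when 1 line was left out. For day 3 against day 2.5 the log2 fold changes then ran from -0.051 to 0.44 for Sox3, -0.36 to 1.20 for Pax6, -0.22 to 0.32 for Pax3 and -1.502 to 0.28 for Hesx1 in wt, and from -0.41 to 0.96 for Pax6 and -0.24 to 0.70 for Pax3 in het. For day 2.5 against day 2 in wt they ran from -0.12 to 0.97 for Hesx1. For het over wt they ran from -0.20 to 0.81 for Hesx1 and -0.47 to 0.25 for Irx3 on day 0, from -0.24 to 0.18 for Sox1 and -0.087 to 0.20 for Sox3 on day 2, from -0.43 to 0.69 for Pax6 on day 2.5, and on day 3 from -0.64 to 0.65 for Pax6, -0.26 to 0.12 for Irx3 and -0.0046 to 0.27 for Sox3. The cause was not tested.

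Over all genes, het against wt on days 0, 2, 2.5 and 3 called 0, 85, 0 and 1 genes, against 82, 233, 3 and 116 with the DESeq2 Wald test, 369, 384, 87 and 274 without the filter, and 1, 23, 1 and 15 in one fit of all libraries. Leaving out single lines gave 0 to 68, 0 to 211, 0 to 3 and 0 to 93, and for the steps 4152 to 6363 (6869 with all lines) and 2249 to 3875 (4519) in wt and 2386 to 3032 (4710) in het at the last step. The interactions called 0 at each step (0 to 2 with a line left out), against 58, 33 and 23 without the filter and 10 for the first step with the DESeq2 Wald test. Hes3, Six3, Neurog2, and mostly Pax3 and Hes5, lay near the level that 3 counts give, so changes among them could seldom be tested at this depth.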
